A study of Homo sapiens with 2 samples.

Results

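The genes described here are 34 genes of the NRF2, glutathione and thioredoxin defence against oxidants, compared between the kidney cancer cell line 786-O and a line derived from it that has a functional VHL allele, called the VHL-positive line. They were chosen by name, and all 34 were found among the 19775 genes that had at least 1 probe set annotated to a single gene. Together they had 73 such probe sets, 61 of them above a floor set at the median of all values on both arrays, an intensity of 22.3. A gene was represented by its brightest single-gene probe set and counted as measured where that probe set passed the floor on at least 1 array, which held for 32 of the 34. Total RNA of each line was labelled with biotin and read on 1 expression array.

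786-O is a human renal cell carcinoma line with a mutated VHL allele. VHL recognises hydroxylated HIF alpha subunits and hands them to a ubiquitin ligase for degradation, and the design asked which genes depend on it. The labels used here do not say how the functional allele was put in, whether the VHL-positive line is a single clone, how many passages separate the lines or how they were grown. The series title names an EMCV study, but the labels give no infection for either array. VHL itself was no check of the labels: its brighter probe set read 28.9 in 786-O and 15.96 in the array labelled as the VHL-positive line, a difference of -0.49 that runs against the label, and the other read 6.32 and 7.96. Both probe sets lie near or below the floor, and whether either detects the introduced allele is not given. Every direction below therefore rests on the array labels, and "VHL-positive" stands for the array labelled so. Each line was read once, so no difference has a replicate check or a test, and line, clone and array cannot be told apart.

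NRF2, encoded by NFE2L2, is a transcription factor that KEAP1 holds back by sending it for degradation. Oxidants and electrophiles modify KEAP1, and NRF2 then pairs with a small MAF protein on antioxidant response elements near genes for glutathione synthesis, thioredoxin recycling, NADPH supply and detoxification. Glutathione and thioredoxin are the main thiol reductants of the cell, and NADPH keeps both reduced. NRF2 is itself regulated largely through protein stability, which an array of RNA does not measure.

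Most of these genes were higher in the VHL-positive line, by modest amounts. Each difference is log2(VHL-positive + 16) minus log2(786-O + 16). Positive values therefore mean a higher intensity in the VHL-positive line, and folds are taken on the same scale, on which dim genes differ by less than their intensities do. Of the 32 measured genes 26 were higher and 6 lower, or 81.2% higher against 56.8% of the 13291 measured genes of the arrays, and 6 of the 32 changed sign in at least 1 alternative setting. The median difference was 0.36, beside 0.05 over all measured genes. At least 2-fold apart were 2 genes (6.25%), where 3.72% of all measured genes were. Both were higher: the cystine transporter gene SLC7A11 and the pentose phosphate enzyme gene PGD, against 1.54% of all measured genes that were 2-fold higher. At least 2-fold lower were 0 genes, against 2.18% of all measured genes. At a threshold of 1.5-fold, 7 genes were higher (21.9%, against 6.25% of all) and 2 lower (6.25%, against 6.55% of all). The 7 were SLC7A11, PGD, NQO1, GCLM, ME1, GSS and SQSTM1, and the 2 were the glutathione transferase genes GSTM3 and MGST1. GSS and SQSTM1 only just passed, at 1.504-fold and 1.501-fold. With quantile normalization they fell below 1.5-fold, at differences of 0.54 and 0.52. ME1 fell below it with the median over probe sets, at 0.31. The 1.5-fold counts were not repeated in the alternative settings, so they depend on the main setting. These shares describe genes that were listed with results of the same arrays known, so they are no independent evidence for a direction.

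**Figure D1:**
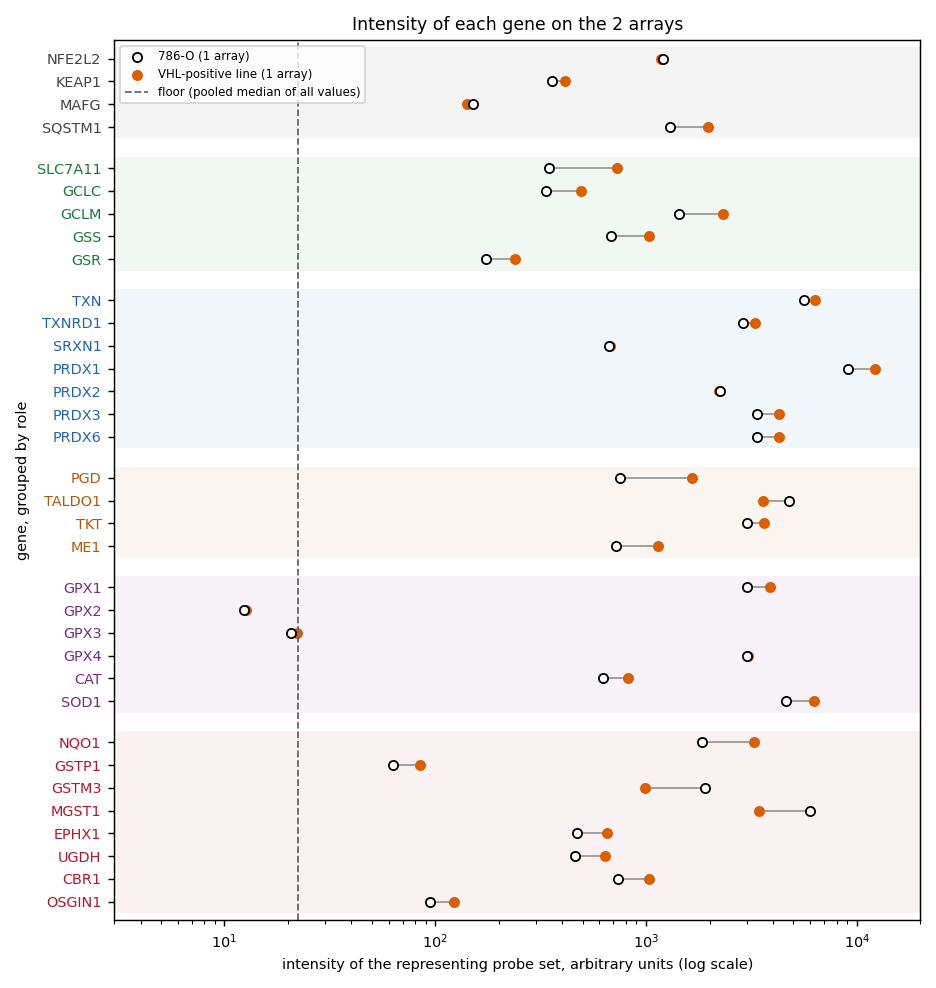
Intensity of the representing probe set of each of the 34 genes on a log axis in arbitrary units, with 786-O as open circles and the VHL-positive line as orange circles, 1 array each, grouped by role. SLC7A11 and PGD show the widest gaps to the right, GSTM3 and MGST1 lie the other way, and GPX2 and GPX3 lie below the dashed floor of 22.3. Intensities of different probe sets are not comparable with one another.

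The antioxidant response element is the sequence through which NRF2 acts, so the promoter windows of the genes were searched for its core, TGACNNNGC, on both strands. RefSeq windows of GRCh38.p14, from 250 bases before to 50 bases after a gene start, were matched by symbol for 28 of the 34 genes, with 39 windows in all. Of the 28 genes 10 (35.7%) had at least 1 match, against 16.1% of all 27305 genes in the table, and 28.2% of the 39 windows held it, against 13.3% of all 35116 windows. Because the genes were picked as members of the NRF2 pathway, an excess can follow from that choice, and it says nothing about the arrays. The 10 were KEAP1, GCLM, TXNRD1, PGD, ME1, GPX2, GSTP1, MGST1, EPHX1 and CBR1. The KEAP1 and EPHX1 matches lie before inner starts of those genes, and that of MGST1 lies after a start. The stretches below are shown because they carry a match before the outermost annotated start of a gene, 5′ to 3′ along the gene, with the matched letters in capitals. A match written GC first lies on the opposite strand.

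GCLM: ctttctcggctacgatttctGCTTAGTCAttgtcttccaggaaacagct
PGD: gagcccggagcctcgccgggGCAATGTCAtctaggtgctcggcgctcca
ME1: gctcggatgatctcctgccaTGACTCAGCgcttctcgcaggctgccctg
CBR1: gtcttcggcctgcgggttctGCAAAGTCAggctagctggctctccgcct
TXNRD1: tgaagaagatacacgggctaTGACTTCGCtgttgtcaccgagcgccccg
GSTP1: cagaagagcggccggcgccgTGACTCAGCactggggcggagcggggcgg
GPX2: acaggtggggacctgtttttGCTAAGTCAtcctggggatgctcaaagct

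The GCLM stretch is chr1:93909436-93909484 on the minus strand, with the match at bases -34 to -26 from the start. The PGD stretch is chr1:10398843-10398891 on the plus strand (-201 to -193), and the ME1 stretch chr6:83431160-83431208 on the minus strand (-137 to -129). CBR1 is shown from chr21:36069845-36069893 (-159 to -151), TXNRD1 from chr12:104215660-104215708 (-99 to -91) and GSTP1 from chr11:67583726-67583774 (-66 to -58), all on the plus strand. GPX2 is shown from chr14:64942839-64942887 on the minus strand (-122 to -114). The ME1 and GSTP1 matches also contain TGACTCA, a form of the AP-1 type site TGANTCA, which 3 of the 28 genes held (ME1, GSTP1 and OSGIN1; 10.7%, against 9.37% of all genes). A match describes letters and not a site in use. Of the genes shown, PGD was 2.17-fold higher in the VHL-positive line, GCLM 1.61-fold and ME1 1.57-fold, CBR1, GSTP1 and TXNRD1 differed by 0.48, 0.35 and 0.20, and GPX2 was below the floor on both arrays. Of the genes with a match that are not shown, MGST1 was 1.75-fold lower, and EPHX1 and KEAP1 differed by 0.46 and 0.19. The windows of NQO1, GCLC and SRXN1 held no match, which says only that these letters are not in these windows.

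Regulators of the pathway differed little, apart from SQSTM1. NFE2L2 read 1208 in 786-O and 1174 in the VHL-positive line, a difference of -0.04, and its other probe set above the floor gave 87.1 and 108, a difference of 0.27. The NFE2L2 value was 0.16 once the median of neighbouring genes was subtracted, so its direction was not settled. A further probe set, annotated to both NFE2L2 and CSNK2A1 and not used for either, read 283 in 786-O and 140 in the VHL-positive line. KEAP1, the cysteine-rich sensor that binds NRF2, read 359 and 412, a difference of 0.19. MAFG, a small MAF partner of NRF2, read 151 and 142 on the brighter probe set and 132 and 159 on the other, and these differed in opposite directions, by -0.08 and 0.23.

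SQSTM1 encodes p62, an autophagy receptor that binds KEAP1 and is also an NRF2 target. It read 1301 in 786-O and 1962 in the VHL-positive line on its brightest probe set, a difference of 0.59, and 183 and 391 on the next, a difference of 1.04. The 2 dimmer probe sets above the floor went the other way, at 46.2 and 40.1 and at 44.0 and 28.9. SQSTM1 was -0.15 with only the probe sets whose names lack the suffixes _s_at, _x_at and _a_at. As the median of all 5 of its probe sets it was -0.02, which is the value of the 1 probe set below the floor (7.36 and 6.98). Its direction therefore rests on the 2 brighter probe sets.

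Glutathione supply differed in 1 direction: all 5 genes were higher in the VHL-positive line. Each kept that direction in all 9 alternative settings, though those that change the floor or the pseudocount cannot alter a sign. The median of the 5 genes was 0.59, from 0.44 to 0.60 over the 9 settings. SLC7A11, the light chain of the exchanger that brings in cystine, read 346 in 786-O and 732 in the VHL-positive line, which is 2.07-fold higher and above 98.7% of all measured genes in rank of difference. Its other probe sets read 144 and 425, a difference of 1.47, and 47.6 and 106, a difference of 0.94. All 3 SLC7A11 probe sets therefore differed in the same direction, by 0.94 to 1.47. With a pseudocount of 64 the SLC7A11 difference was 0.96, just under 2-fold.

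Glutamate-cysteine ligase joins glutamate and cysteine in the rate-limiting step of glutathione synthesis, and both of its subunits were higher. GCLM, the modifier subunit, read 1430 and 2317, a difference of 0.69, with its other probe sets at 0.93 and 0.54. GCLC, the catalytic subunit, read 335 and 492, a difference of 0.53, with another probe set at 0.40. GSS, which adds glycine in the last step, read 681 and 1033 on one probe set and 630 and 858 on the other, differences of 0.59 and 0.44. GSR, which reduces oxidised glutathione with NADPH, read 174 and 239, a difference of 0.43, and 0.48 on the other probe set. The genes around GSR were also higher, with a median of 0.26 over the 30 nearest measured genes, and 0.17 remained for GSR after that was subtracted. The part of neighbouring genes in these values was not tested.

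The thioredoxin system showed smaller differences, with 6 of 7 genes higher, none of them by 1.5-fold, and a median of 0.20; SRXN1 was below 0 with quantile normalization and with the intensity trend removed, and PRDX2 above 0 after subtraction of the neighbouring genes. Thioredoxin, encoded by TXN, reduces disulphides in proteins, and its gene read 5610 and 6346, a difference of 0.18. Both TXN probe sets gave 0.18, and 0.01 was left once the neighbouring genes were subtracted. TXNRD1, the selenoprotein that recharges thioredoxin with NADPH, read 2868 and 3302, a difference of 0.20. SRXN1, the sulfiredoxin that repairs over-oxidised peroxiredoxins and a well-known NRF2 target, read 666 and 671. The SRXN1 difference of 0.01 was -0.05 with the intensity trend removed, and it lay near the middle of all measured genes, above 44.0% of them.

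Peroxiredoxins remove peroxides at the expense of thioredoxin or, for PRDX6, glutathione. PRDX1, a cytosolic member, read 9026 in 786-O and 12248 in the VHL-positive line, a difference of 0.44. The median of its 30 neighbours was 0.30, and 0.14 remained after subtraction. PRDX3, the mitochondrial member, read 3360 and 4283, a difference of 0.35, with the other probe set at 0.40. PRDX6 read 3357 and 4247, a difference of 0.34, but 0.09 on its other probe set. PRDX2 read 2253 and 2209, a difference of -0.03, and its 4 probe sets ranged from -0.34 to 0.19. PRDX1, PRDX3 and PRDX6 were thus higher by about as much as probe sets of a gene differ, and PRDX2 had no settled direction.

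NADPH supply differed by enzyme. PGD, which makes NADPH in the oxidative pentose phosphate pathway, read 749 in 786-O and 1642 in the VHL-positive line, a difference of 1.12 that lay above 98.9% of measured genes. That value rests on 1 probe set, because the other PGD probe set above the floor read 24.8 and 25.6 and the remaining one was below it. Subtracting the neighbouring genes, whose median was 0.22, left 0.90. ME1, the cytosolic malic enzyme, read 719 and 1141, a difference of 0.65, with another probe set at 0.31.

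The enzymes of the non-oxidative branch of that pathway went in different directions. TALDO1, the transaldolase gene, read 4752 in 786-O and 3576 in the VHL-positive line, a difference of -0.41 on its only probe set. It stayed negative in all 8 alternative settings that gave it a value. Of these, only quantile normalization (-0.47), removal of the intensity trend (-0.50) and subtraction of the neighbouring genes (-0.31) could change its sign. TKT, the transketolase gene, read 3013 and 3606, a difference of 0.26, and 0.21 on a second probe set. The third TKT probe set read 154 and 396, a difference of 1.28, so the probe sets of this gene disagreed on the size and not on the direction.

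**Figure D2:**
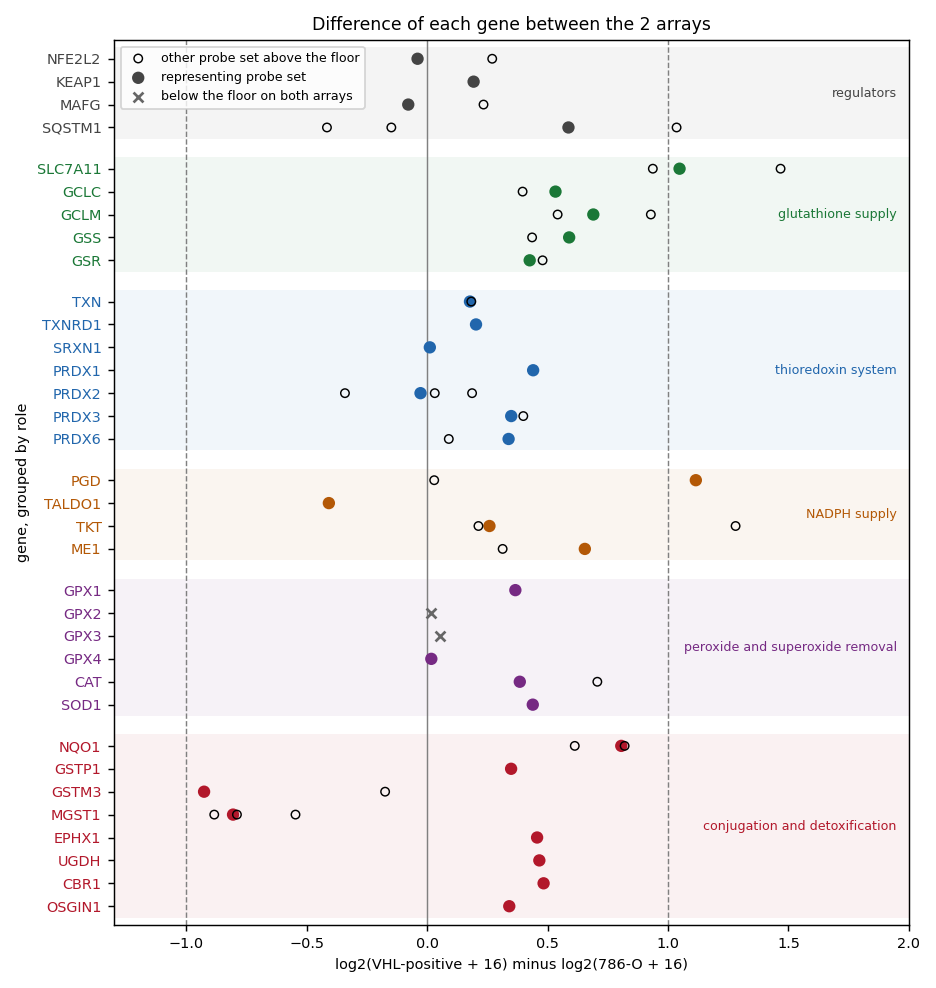
Difference of each gene, log2(VHL-positive + 16) minus log2(786-O + 16), with filled circles for the representing probe set, open circles for other probe sets above the floor and crosses for the genes below it, grouped by role. Dashed lines mark 2-fold. The 5 glutathione supply genes lie right of 0 on every probe set above the floor, MGST1 lies left of 0 on all 4, and SQSTM1 and PRDX2 have probe sets on both sides.

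Enzymes that remove peroxide and superoxide had a median of 0.38 over the 4 measured genes, and all 4 values were above 0, though GPX4 was below 0 with quantile normalization and with the intensity trend removed. CAT, the catalase gene, read 625 in 786-O and 821 in the VHL-positive line, a difference of 0.38, with another probe set at 0.71. SOD1, the cytosolic superoxide dismutase gene, read 4595 and 6231, a difference of 0.44. GPX1, the main cytosolic glutathione peroxidase gene, read 2997 and 3866, a difference of 0.37. GPX4, which reduces lipid peroxides in membranes and holds back ferroptosis, read 3001 and 3037, a difference of 0.02 that turned to -0.08 with the intensity trend removed. GPX2, a peroxidase best known from the gut, read 12.4 and 12.7 and was below the floor, as was GPX3, a secreted peroxidase made in kidney tubules. GPX3 read 20.7 and 22.1, just under the floor of 22.3, and no direction is given for either.

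Conjugation and detoxification genes held both the third-highest value of all members and the lowest values. NQO1, which reduces quinones and is the usual marker gene of NRF2 activity, read 1846 in 786-O and 3238 in the VHL-positive line, 1.75-fold higher. Its 3 probe sets differed by 0.61 to 0.82, and 0.51 remained after subtraction of the neighbouring genes, whose median was 0.30. EPHX1, the microsomal epoxide hydrolase gene, read 469 and 650, a difference of 0.46. UGDH, which makes UDP-glucuronic acid for glucuronidation, read 460 and 641, a difference of 0.47. CBR1, a carbonyl reductase gene, read 733 and 1032, a difference of 0.48. OSGIN1, an oxidative stress-induced growth inhibitor gene, read 94.0 and 123, a difference of 0.34. GSTP1, the pi-class glutathione transferase gene, read 62.9 and 84.4, a difference of 0.35. These 5 genes had 1 probe set each, so that no second probe set checked them.

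GSTM3 and MGST1 stood at the other end. GSTM3, a mu-class glutathione transferase gene, read 1895 in 786-O and 989 in the VHL-positive line, 1.90-fold lower, and a lower difference was found in 2.55% of measured genes. Its second probe set was dim, at 41.5 and 34.9, and differed by -0.18. MGST1, a membrane-bound glutathione transferase and peroxidase gene, read 5999 and 3423 on its brightest probe set, 1.75-fold lower. The other MGST1 probe sets above the floor read 5779 and 3123, 2801 and 1613, and 40.3 and 22.5. All 4 were lower in the VHL-positive line, by -0.88 to -0.55 on the log2 scale. GSTM3 passed 2-fold, at -1.01, with the intensity trend removed and, at -1.12, with the neighbouring genes subtracted, but lay at -0.55 as the median of its probe sets and at -0.18 on the unsuffixed probe set alone.

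**Figure D3:**
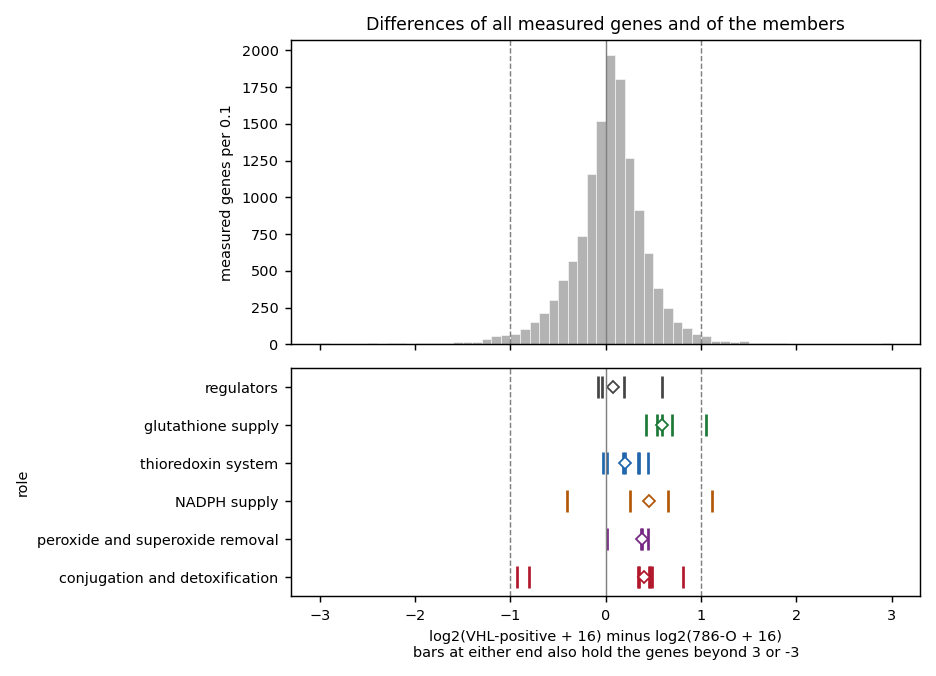
Upper panel, number of measured genes per 0.1 of difference for all 13291 measured genes; lower panel, the 32 measured members as ticks by role, with the median of each role as a diamond, on the same axis of log2(VHL-positive + 16) minus log2(786-O + 16). Dashed lines mark 2-fold. The glutathione supply ticks lie between 0.43 and 1.05 and the thioredoxin system ticks between -0.03 and 0.44, and GSTM3 and MGST1 stand apart at -0.93 and -0.81.

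How far the probe sets of a gene differ is the only error that 1 array per line allows, and it leaves out the spread between cultures. Its SD was 0.33 over the 6436 genes that had more than 1 probe set above the floor and 0.36 over the 19 members that did. Of the 32 measured genes 20 were higher and 3 lower by at least that SD of 0.33, and 9 lay within it, where 18% of all measured genes were higher and 14.8% lower by that much. In 15 of the 19 members with several probe sets above the floor, all of these had the same sign, and in NFE2L2, MAFG, SQSTM1 and PRDX2 they did not. Over all 61 member probe sets above the floor 48 were higher and 13 lower. At least 2-fold higher were 5, which belong to SLC7A11, PGD, TKT and SQSTM1, and 0 were at least 2-fold lower. The shares over all probe sets above the floor, and of all genes with 1 sign, were not computed. These counts are therefore not read as a result about the members.

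Genes next to the members on the chromosomes also differed. The median of the 30 nearest measured genes ranged from -0.30 around CAT to 0.30 around NQO1, and after it was subtracted the median of the members was 0.19. In that setting 28 of the 32 were above 0, against 50.2% of all 13251 genes with a value there. SLC7A11, whose neighbours had a median of 0.00, was the 1 gene at least 2-fold higher, against 1.2% of all, and GSTM3 the 1 at least 2-fold lower, against 2.22%. CAT and UGDH were larger there, at 0.69 and 0.71, while PRDX1, GPX1 and GSTP1 lay between 0.13 and 0.15.

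**Figure D4:**
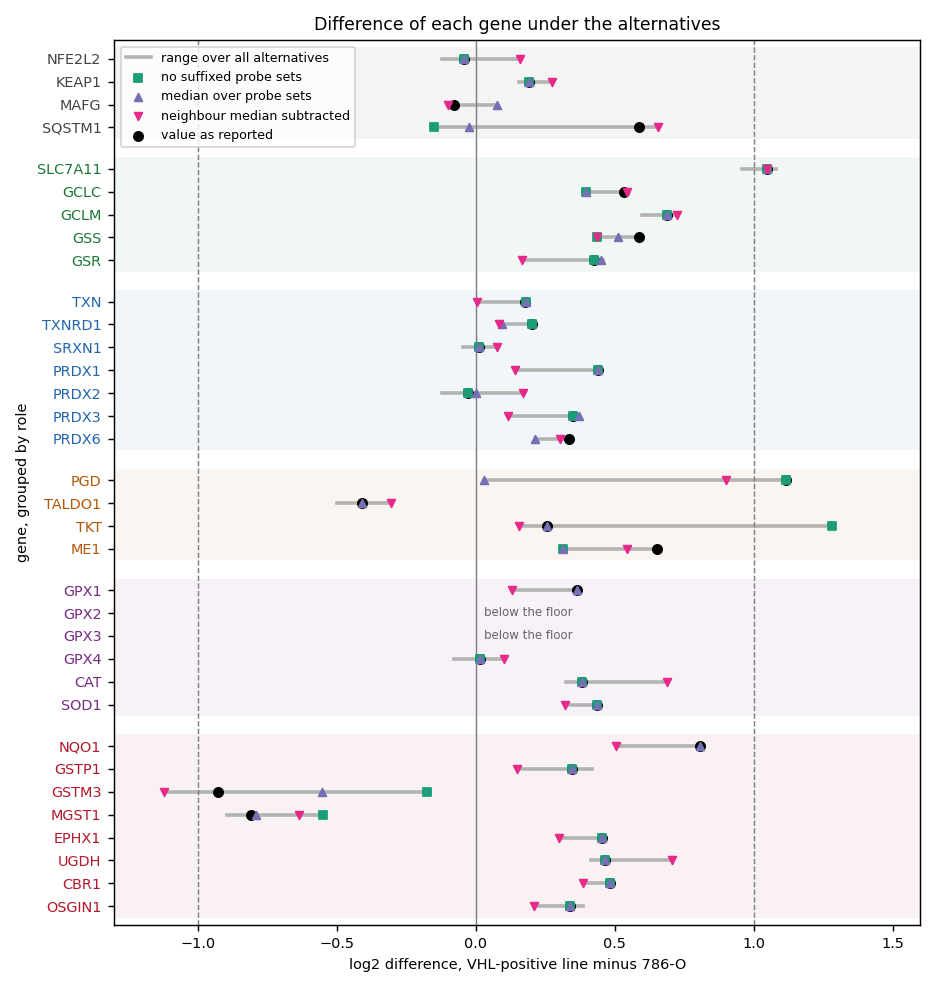
Difference of each measured gene as reported (black circles) and under the alternatives, with grey lines for the range over all of them and symbols for 3 of them, grouped by role, on an axis of log2 difference (VHL-positive line minus 786-O). The lines of SLC7A11 and GCLM are short, whereas those of PGD, TKT, SQSTM1 and GSTM3 are long because their probe sets differ.

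The rest of the pathway was followed in 87 listed genes that are no members, of which 82 had a single-gene probe set and 76 were measured. Of these 51 were higher and 24 lower, with 11 at least 2-fold higher and 3 at least 2-fold lower and a median of 0.17. Over all measured genes the shares were 56.8% higher, 1.54% at least 2-fold higher and 2.18% at least 2-fold lower, with a median of 0.05. Among partners and relatives of NRF2, listed together with genes for its degradation, 7 of 8 were lower, with a median of -0.18. The highest of the 8 was 0.08, and some of them had probe sets of both signs. Apart from MAFF, all lay within the SD between probe sets of 0.33 on their representing probe set. MAFF, a small MAF gene, differed by -1.11 and, on its other probe set, by -0.58. With the median over probe sets or a pseudocount of 64, 0 genes of that list were 2-fold lower. The medians of these lists kept their signs in all 9 alternatives. Of the other NRF2 targets 14 of 16 were higher and 7 at least 2-fold, with a median of 0.70. That median was 0.30 with the median over probe sets, 1.80 over the 13 genes left with the floor at the 75th percentile and 0.46 over the 9 left without suffixed probe sets, of which 2 were 2-fold higher. The 7 were AKR1B10 and the paralogs AKR1C1, AKR1C2 and AKR1C3, whose probe sets may detect more than their own gene, HMOX1, which encodes haem oxygenase 1 (2.02), PIR (1.80) and KYNU (1.82). The 3 KYNU probe sets above the floor ranged from 0.61 to 2.23. The members of the glutathione and thioredoxin core thus had smaller values than the aldo-keto reductase genes, of which AKR1B10 differed by 4.15.

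Other glutathione and thioredoxin genes went both ways, 15 of 22 higher and 7 lower. Of all measured genes 56.8% were higher, the share to set beside this count and those of the next lists. TXNIP, which binds and inhibits thioredoxin, read 920 in 786-O and 187 in the VHL-positive line, 4.62-fold lower, with 3 probe sets from -2.21 to -1.98. MSRB3, a methionine sulfoxide reductase gene, differed by -1.05, whereas CHAC1, which encodes a glutathione-degrading enzyme, differed by 1.03 and SESN2 by 1.56, with another SESN2 probe set at 0.20. Among other NADPH genes 7 of 9 were higher, and IDH1, the cytosolic isocitrate dehydrogenase gene, read 582 and 1372, 2.32-fold higher on one probe set and 1.27 on the log2 scale on the other. Of the other conjugation and export genes 14 of 21 were higher, and the export pump gene ABCC2 was at least 2.60-fold higher, with the array of 786-O, which was below it, set to the floor.

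Over 54613 probe sets the median intensity was 21.97 for 786-O and 22.58 for the other line. Of 10 renal epithelial tumour markers 8 were measured, 4 higher and 4 lower in the VHL-positive line. Among them the kidney lineage gene PAX8 read 1521 and 1068, the keratin genes KRT18 5315 and 4960, KRT8 1771 and 2116 and KRT19 472 and 930, and vimentin, VIM, 13034 and 12498. The leukocyte gene PTPRC was below the floor, and of 6 leukocyte markers LCP1 alone was measured, at 908 and 66.1. The endothelial list had 3 of 5 markers measured, with summed intensities of 64.6 and 82.8. Each of these lay near the floor of 22.3, at 19.9 to 28.9. The fibroblast and pericyte list had 3 of 6, with 237 and 222, and in it COL1A1 and ACTA2 differed by -0.21 and -0.33. LUM, at 5.64 and 37.1, was at least 1.39-fold higher with its 786-O value set to the floor. The hepatocyte list had 2 of 3, with 52.2 and 56.6, also near the floor, at 20.7 to 31.5. The part of other cell types in the results was not tested.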

How the data were processed

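Trizol was used for RNA extraction, per the labels' protocols. The authors deposited 1 intensity per probe set and array on a linear scale, as the values show. R 2.10 is the only tool in the submitters' processing notes, and background correction, normalization and probe summary, each of which could compress or shift differences, were not given in the sources used here. A platform annotation paired 41091 probe sets with 1 gene, 1801 with several and left 11721 unnamed here, and current symbols were taken by Entrez number for 41037 of the first. Only single-gene probe sets were used. The brightest is that with the highest mean log2(value + 16). With 1 array per line no test or error between arrays was computed, only the SD between probe sets of a gene, and genes are described by 2-fold and 1.5-fold thresholds. Alternatives were quantile normalization, removal of the intensity trend by lowess (span 0.3), no floor, the median over probe sets, the 75th percentile as floor, only unsuffixed probe sets, pseudocounts of 1 and 64, subtraction of the median of the 30 nearest measured genes in GRCh38.p14 order (15 on each side), and the 1.5-fold threshold. The median over probe sets took in those below the floor. All members are named. Of other pathway genes those at least 2-fold apart are named, and others only by count. Members, lists and alternatives were chosen with earlier results of these data known. The counting was run on simulated data that had less noise than the SD between probe sets and larger planted differences than the members had. That run checks the counting steps and not the differences reported here. Python 3.11.15, numpy 2.4.6, pandas 2.3.3, statsmodels 0.14.6 and matplotlib 3.10.9 were used.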

Additional observations from a re-analysis of the deposited data

How the results depend on the processing

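No paired analysis was possible because there was a single array for either line, which also left no replicate to drop. The median of the members kept its sign in all 9 alternatives, from 0.19 with the neighbour median subtracted to 0.39 with a pseudocount of 1. The count of genes at least 2-fold higher was 2 as reported and 1 with the median over probe sets (SLC7A11, since the dimmer PGD probe sets enter), 1 with the neighbour median subtracted and 1 with a pseudocount of 64, which shrinks all differences; it was 3 without suffixed probe sets, where TKT (1.28) enters. At the 1.5-fold threshold it was 7. The count at least 2-fold lower was 0 as reported, 1 with the intensity trend removed, 1 with the neighbour median subtracted and 2 at the 1.5-fold threshold. Of 282 alternative values of the 32 measured genes 272 kept their sign, and the 10 others belong to NFE2L2, MAFG, SQSTM1, SRXN1, PRDX2 and GPX4. Changes of the floor or the pseudocount cannot alter the sign of a gene. For genes with 1 probe set, neither can the median over probe sets or the restriction to unsuffixed ones. The 272 therefore include many values whose sign was fixed in advance. For 8 values the move exceeded the SD between probe sets. Without suffixed probe sets 5 measured members had no value, and with the floor at the 75th percentile 31 were left. Causes were otherwise not tested.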

Other observations

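Some deposited values repeat. On 2127 of 54613 probe sets (3.89%) the intensity was identical on both arrays, and 0 of the 73 member probe sets were among them. KEAP1 and EPHX1 were the only member genes among 1316 probe sets whose intensities on both arrays lay on a common grid with steps of 0.5 (tolerance 1e-06), and their intensities differed between the arrays by 53.5 and 180.5 units. How these values arose was not tested.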
